A study of Danio rerio with 5 samples.

Results

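The genes described here encode the translation initiation factors, the proteins that bring a ribosome to the start codon of an mRNA. Members were the rows of the count tables whose symbol in a table of Ensembl zebrafish gene IDs starts with EIF1, EIF2, EIF3, EIF4, EIF5 or EIF6, whatever the case of the letters. Of the 66 IDs with such a symbol, 59 are rows of the tables, of 17997 gene IDs in all. These 59 IDs carry 54 symbols, because EIF2S1, EIF3J, EIF4G2, EIF4G3 and EIF4EBP3 each name 2 IDs. Many symbols are those of the human gene, and zebrafish often has a duplicated copy, so reads of near-identical copies may have been split between rows. The rule used names only and no measured value. It also takes in regulators of the factors, such as the eIF4E-binding proteins, and EIF5A, which acts mainly in elongation.

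The cells came from adult zebrafish (Danio rerio) of the TL background carrying nppa:mCitrine, a fluorescent reporter of the border zone gene nppa. All hearts had been cryo-injured at the tip of the ventricle with a cold copper probe, and no uninjured group enters these data. Border zone cardiomyocytes, the heart muscle next to the injury, were sorted on mCitrine at 1, 3 or 7 days post-cryo-injury (dpci) and placed 1 per well in 384-well plates. SORT-seq counted unique molecular identifiers (UMIs), so that each captured transcript counts once, on 1 plate of 1 dpci, 1 plate of 3 dpci and 3 plates of 7 dpci. The labels do not say which fish went to which plate, so the plates are the replicates here and their spread may be technical.

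Initiation begins when eIF2, charged with GTP and the initiator tRNA, joins the small ribosomal subunit together with eIF1, eIF1A, eIF3 and eIF5. The cap of the mRNA is bound by eIF4E, which the scaffold eIF4G links to the helicase eIF4A and, through eIF3, to the ribosome. Cells control this step at eIF2, whose alpha subunit is phosphorylated by stress kinases, and at eIF4E, which the 4E-binding proteins hold back until the growth kinase mTORC1 phosphorylates them. Growing heart muscle makes much new protein, and heart muscle of zebrafish grows and divides while the injured heart is repaired.

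Wells with at least 500 UMIs were kept as cells, which gave 1175 cells (169 to 283 per plate), with a median of 1023 UMIs per cell on plate 1 of 7 dpci and 2178 to 2700 on the other plates. The plates of 1 and 3 dpci carried the code of 1 sequencing run, plate 1 of 7 dpci that of another and plates 2 and 3 of 7 dpci that of another again, so run and time point cannot be told apart in any comparison with 7 dpci. Pairs of 7 dpci plates differed more than sampling noise (chi-square per degree of freedom of 3.92 to 7.67 over genes), so none is a copy of another. All plates use the same well barcodes, so shared barcodes carry no information on shared cells. At least 10 of the 11 gene IDs of the cardiomyocyte marker list were detected on each plate. The 11 macrophage marker IDs summed to 1511 counts per 1000000 UMIs (CPM) at 1 dpci, 1119 at 3 dpci and 117 to 160 at 7 dpci, and the epicardial or fibroblast markers to 1414, 543 and 14.2 to 88.5. In 16 cells of 1 dpci, 16 of 3 dpci and 1 of 7 dpci, markers of other cell types outnumbered those of cardiomyocytes. These wells held 17.6% of the UMIs at 1 dpci and 14.1% at 3 dpci, so values without them are given below.

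Initiation factor genes together took about 1% of the UMIs of a plate, and this share was highest at 1 dpci. It was 1.02% at 1 dpci (12689 UMIs, exact 95% interval 1.01% to 1.04%), 0.958% at 3 dpci (7504 UMIs, 0.936% to 0.979%) and 0.917% ± 0.0389 at 7 dpci (SD, n = 3). The 3 plates of 7 dpci had 0.873%, 0.948% and 0.931%, all below the plates of 1 and 3 dpci. The intervals of plates 2 and 3 (0.925% to 0.970% and 0.908% to 0.955%) overlapped that of 3 dpci. With mitochondrial genes kept in the totals, plates 2 and 3 of 7 dpci (0.864% and 0.846%) were above 3 dpci (0.834%). Plate 2 was then close to 1 dpci (0.865%). Without the wells above 3 times the plate median, plate 2 of 7 dpci (0.969%) was also above 3 dpci (0.958%). The order of 3 and 7 dpci thus depends on the processing. The intervals cover counting error only, and with 1 plate against 3 an exact one-sided permutation test cannot give a p below 0.25. In sums over cells, fewer cells with a transcript and less RNA per cell cannot be told apart. Initiation factors are used by every cell type, and in the 16 cells of 1 dpci with more markers of other cell types their share was 0.802% (0.765% to 0.840%), against 1.07% in the other 267 cells. At 3 dpci the same shares were 0.952% and 0.958%. Leaving these wells out thus widened the gap between 1 and 3 dpci.

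The subunits of eIF3, the largest initiation factor, held the largest part of these UMIs on every plate. UMIs are counted once per transcript from its 3′ end, so levels of different genes are compared here without division by length. The 14 eIF3 rows held 0.301% at 1 dpci, 0.270% at 3 dpci and 0.305% ± 0.0473 at 7 dpci. The 2 EIF5A rows followed with 0.241%, 0.227% and 0.216% ± 0.0184. The start codon selection genes (EIF1, EIF1A and EIF5 genes) took 0.167%, 0.137% and 0.1304% ± 0.0103. At the other end stood the eIF2 alpha kinases, with 26 UMIs at 1 dpci (0.00210%), 35 at 3 dpci (0.00447%) and 6, 9 and 11 at 7 dpci. Shares that were lower on every 7 dpci plate than at both earlier times were those of the cap-binding genes (0.0237%, 0.0222% and 0.0103% ± 0.00318), the EIF4G scaffold genes (0.0453%, 0.0369% and 0.0193% ± 0.00557), the helicase genes (0.0616%, 0.0675% and 0.0522% ± 0.00869) and EIF6 (0.00549%, 0.00408% and 0.00266% ± 0.00107). For the helicase genes the intervals of plates 2 and 3 of 7 dpci (0.0519% to 0.0632% and 0.0514% to 0.0631%) overlapped that of 1 dpci (0.0573% to 0.0661%). For EIF6 the interval of plate 1 of 7 dpci (11 UMIs, 0.00194% to 0.00697%) covered the shares of both earlier plates. These shares are not TMM-scaled. The share of the eIF4E binders was 0.0822% at 1 dpci, 0.105% at 3 dpci and 0.105% ± 0.000615 at 7 dpci, higher on 3 of 3 plates than at 1 dpci.

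**Figure D1:**
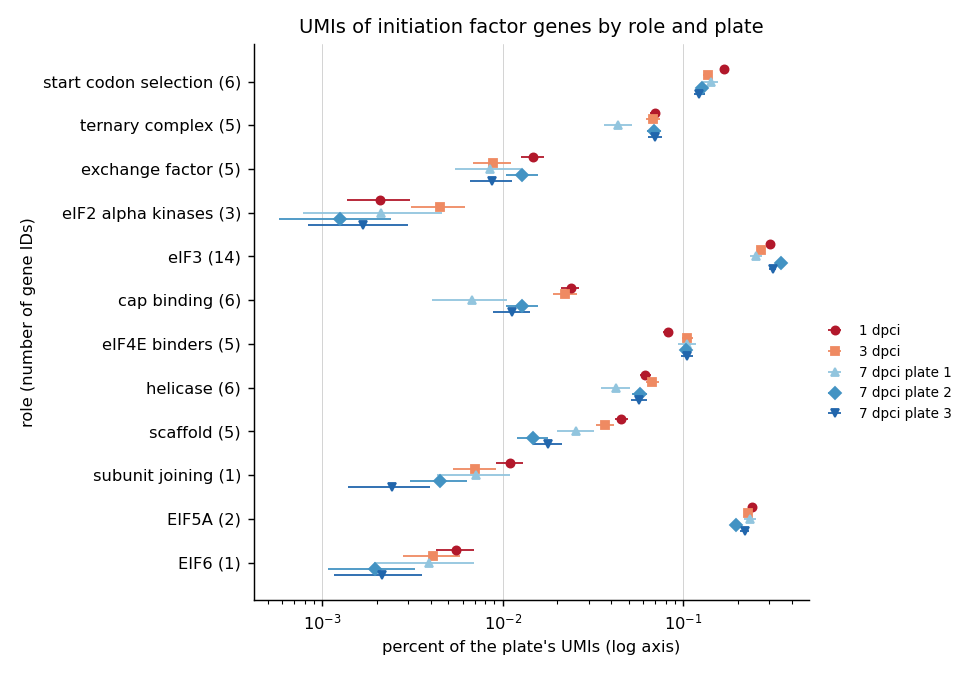
Percent of each plate's UMIs (log axis) held by the initiation factor genes of each role, with the number of gene IDs in brackets; points are plates and bars are exact 95% intervals for counting error. eIF3 and EIF5A sit highest at about 0.2% to 0.35%, and the cap-binding and scaffold genes of all 3 plates of 7 dpci lie below those of 1 and 3 dpci.

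Which members differ between the time points was tested with edgeR over all genes that averaged 10 CPM or more, scaled by TMM, which sets the bulk of genes equal between plates. Of the 59 members, 47 passed this filter and 12 did not. Between 7 and 1 dpci, 0 of the 47 members had an adjusted p under 0.05, where 7.49% of the 5624 genes tested did (2.79% higher and 4.69% lower at 7 dpci). Between 7 and 3 dpci it was again 0 of 47, beside 1.87% of all genes (0.64% higher and 1.23% lower). DESeq2, fitted to 17881 genes with the low ones included, also called 0 of 59 members in both comparisons, beside 1.91% and 0.677% of all genes. At an unadjusted p under 0.05 it had 5 members higher and 0 lower against 1 dpci (2.4% and 2.85% of all genes), and 4 higher and 0 lower against 3 dpci (1.54% and 1.8%). Most of the 17881 genes failed the 10 CPM filter, whereas 47 of the 59 members passed it. The DESeq2 shares of all genes are thus no matched background for the members. In edgeR, over the 5624 genes that passed, 8 members were higher and 1 lower at 7 than at 1 dpci at an unadjusted p under 0.05 (9.17% and 12.8% of all genes). Against 3 dpci 5 were higher and 0 lower (6.4% and 8.87% of all genes).

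In the fit over all plates the members lay above the bulk of genes, but not by the same amount on each plate. Their median log2 fold change was 0.19 between 7 and 1 dpci, beside -0.13 over all genes tested, and 0.21 between 7 and 3 dpci, beside -0.09. Both values shift with the scaling: with library totals in place of TMM the medians were -0.56 for the members and -0.85 for all genes between 7 and 1 dpci, and -0.42 and -0.69 between 7 and 3 dpci. Relative to all genes the members stood 0.31 higher with TMM and 0.29 higher with library totals between 7 and 1 dpci, and 0.30 and 0.27 higher between 7 and 3 dpci. Without the wells rich in other cell types this gap was 0.08 and 0.15, and with thinned cells 0.08 and 0.32. On plate 1 of 7 dpci the median log2 ratio to 3 dpci was -0.143 for members and -0.146 for all genes. To 1 dpci these medians were -0.06 and -0.19. On plates 2 and 3 the medians were 0.18 to 0.44 for members and -0.22 to -0.15 for all genes. On all 3 plates of 7 dpci, 17 of 47 members (36.2%) were above 1 dpci and 13 (27.7%) below, where 25.5% of all genes were above and 37.2% below. Against 3 dpci, 16 members (34.0%) were above and 8 (17.0%) below, where 23.2% and 33.6% of all genes were.

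With TMM the 10 most abundant members were all fitted higher at 7 dpci in both comparisons, with median log2 fold changes of 0.88 against 1 dpci and 0.66 against 3 dpci. With library totals 7 of these 10 were fitted higher than 1 dpci (median 0.15) and 6 of 10 higher than 3 dpci (median 0.05). Of the 37 less abundant members, 15 were fitted higher against 1 dpci (median -0.17) and 18 against 3 dpci (median -0.03). Over the 47 members, Spearman's rho between level and log2 fold change was 0.37 and 0.39, and over all 5624 genes 0.11 and 0.06. This is a description over genes of the same plates, which share library and depth, and the 7 dpci plates enter both the level and the change.

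**Figure D2:**
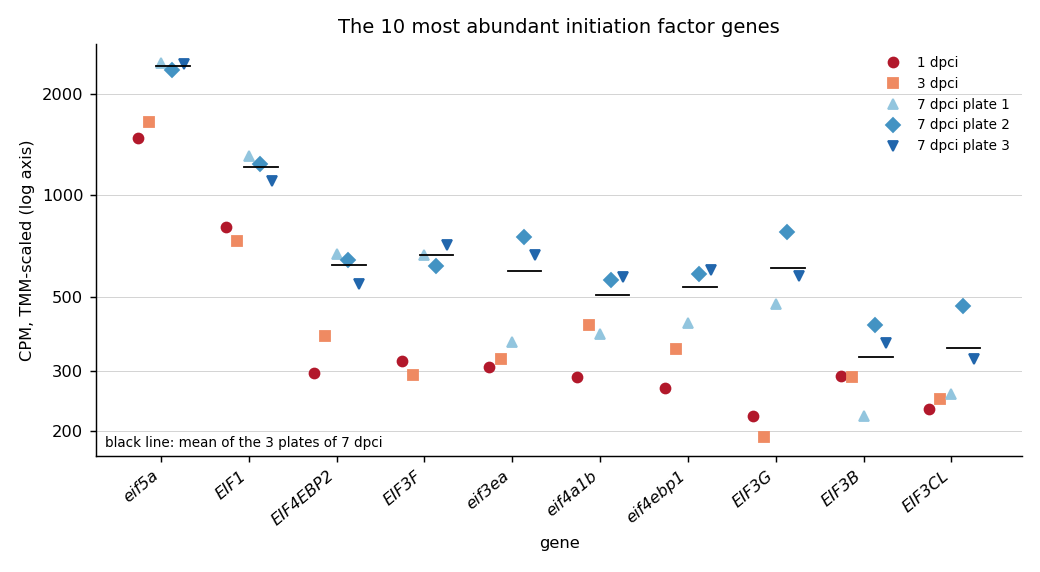
CPM (TMM-scaled, log axis) of the 10 most abundant initiation factor genes on each plate; points are plates and black lines are means of the 3 plates of 7 dpci. For eif5a, EIF1, EIF4EBP2, EIF3F and EIF3G all 3 plates of 7 dpci lie above 1 and 3 dpci, whereas for EIF3B plate 1 of 7 dpci lies below both.

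The start codon is chosen by eIF1 and eIF1A, which keep the ribosome scanning, and by eIF5, which makes eIF2 hydrolyse its GTP. EIF1 (ENSDARG00000012688) had 803 CPM at 1 dpci, 732 at 3 dpci and 1311, 1235 and 1104 at 7 dpci. All 7 dpci plates were above both earlier plates, with log2 fold changes of 0.60 ± 0.29 (SE, edgeR adjusted p 0.272) and 0.73 ± 0.29 (adjusted p 0.266). With library totals the first of these became -0.12. EIF5 (ENSDARG00000003681) went the other way, with 197 CPM at 1 dpci, 136 at 3 dpci and 113, 75.3 and 62.4 at 7 dpci. The fitted log2 differences were -1.27 ± 0.46 from 1 dpci (adjusted p 0.139) and -0.73 ± 0.47 from 3 dpci (adjusted p 0.567), lower on 3 of 3 plates in both. The direction for EIF5 was the same in all 14 alternatives of both comparisons, and with library totals it was called against 1 dpci (log2 fold change -1.98 ± 0.46, adjusted p 0.0428, where 9.71% of all genes were called). Of the genes called there, 497 were lower and 49 higher, and the median of all genes was -0.85. The eIF1A copies eif1axa and eif1axb, EIF1B and EIF1AD made up the rest of this role, and only EIF1AD (0 to 4 UMIs per plate) failed the filter.

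eIF2 carries the initiator tRNA, and its 4 core rows, the alpha, beta and gamma subunit genes EIF2S1 (2 IDs), EIF2S2 and EIF2S3B, were all tested, with log2 fold changes of -0.26 to 0.80 against 1 dpci. EIF2D, which delivers tRNA to the ribosome without eIF2, was counted 12 times at 1 dpci, 5 times at 3 dpci and 1, 10 and 15 times at 7 dpci. Its log2 fold change of 1.74 ± 1.29 against 3 dpci (adjusted p 0.654) was the highest among members tested. EIF2D had 7.47 CPM at 1 dpci, 5.27 at 3 dpci and 4.02, 18.4 and 28.4 at 7 dpci, so plate 1 lay below 3 dpci. The 10 CPM filter averaged all 5 plates, 3 of them of 7 dpci. EIF2D passed it only through plates 2 and 3 of 7 dpci, so this rank rests in part on the filter. The exchange factor eIF2B reloads eIF2 with GTP. EIF2B2 (ENSDARG00000041397), its beta subunit gene, had 49.8 CPM at 1 dpci, 33.7 at 3 dpci and 92.5, 138 and 75.6 at 7 dpci. It was higher on 3 of 3 plates in both comparisons, by 1.04 ± 0.55 on the log2 scale against 1 dpci (adjusted p 0.326) and by 1.60 ± 0.58 relative to 3 dpci (adjusted p 0.222). EIF2B4, the delta subunit gene, had 41.7 CPM at 1 dpci, 19.0 at 3 dpci and 4.02, 23.9 and 17.0 at 7 dpci. The fitted log2 difference was -1.37 ± 0.87 from 1 dpci (adjusted p 0.437), and its 7 dpci plates lay on both sides of 3 dpci. The other 3 eIF2B rows, EIF2B1, EIF2B3 and EIF2B5, failed the filter, with at most 28 UMIs on a plate.

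The eIF2 alpha kinases were near the limit of detection. eif2ak2, a kinase of the branch that senses double-stranded RNA in mammals, was counted 13 times at 1 dpci, 22 times at 3 dpci and 4, 5 and 6 times at 7 dpci. In CPM this is 8.09, 23.2 and 16.1, 9.18 and 11.3, and neither log2 fold change passed the test (0.54 ± 1.01 against 1 dpci with adjusted p 0.837, and -0.96 ± 0.94 against 3 dpci with adjusted p 0.759). eif2ak1, the heme-regulated kinase, had 9, 10, 2, 3 and 0 UMIs, and EIF2AK3, the kinase of the endoplasmic reticulum known as PERK, had 4, 3, 0, 1 and 5, in the order 1 dpci, 3 dpci and plates 1 to 3 of 7 dpci. At this depth no difference of 7 dpci from either earlier time was detectable in eif2ak2, and the other kinase rows were too low to test.

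eIF3 is a large complex that holds the small subunit open for mRNA, and its genes EIF3K and EIF3G had the highest fitted changes against 1 dpci after EIF4A2. All 14 eIF3 rows were tested, and 6 were higher than 1 dpci on 3 of 3 plates and 0 lower, with a median log2 fold change of 0.40. Against 3 dpci, 7 were higher on 3 of 3 plates and 1 lower, with a median of 0.36. EIF3G (ENSDARG00000016889), an RNA-binding subunit, had 221 CPM at 1 dpci, 192 at 3 dpci and 475, 776 and 577 at 7 dpci. On the TMM scale every 7 dpci plate was more than 2-fold above both earlier plates. The fitted log2 differences were 1.47 ± 0.42 from 1 dpci (adjusted p 0.0687) and 1.67 ± 0.42 from 3 dpci (adjusted p 0.0984), the lowest adjusted p of any member in either comparison. EIF3G was called in both comparisons when each cell was thinned to 500 UMIs (adjusted p 0.0427 and 0.0217, where 6.14% and 3.41% of all genes were called) and without the wells above 3 times the plate median (0.0350 and 0.0130, where 6.45% and 6.18% of all genes were called).

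EIF3F (ENSDARG00000077533), the gene of another eIF3 subunit, had 322 CPM at 1 dpci, 293 at 3 dpci and 664, 619 and 713 at 7 dpci. The 7 dpci plates lay close together and above the earlier ones, with log2 fold changes of 1.04 ± 0.34 (adjusted p 0.101) and 1.18 ± 0.34 (adjusted p 0.136). EIF3K, a small subunit that yeast lacks, had 89.6, 102, 161, 351 and 234 CPM in plate order, with log2 fold changes of 1.48 ± 0.54 (adjusted p 0.146) and 1.29 ± 0.54 (adjusted p 0.298). For all 3 of these genes the direction held in all 14 alternatives of both comparisons, but library totals lowered the log2 fold changes, to 0.73 and 1.05 for EIF3G, 0.33 and 0.58 for EIF3F, and 0.74 and 0.66 for EIF3K. The eif3e copies differed in level: eif3ea (ENSDARG00000090697) had 309, 327, 366, 754 and 666 CPM, and EIF3E (ENSDARG00000002549) had 13.1, 27.4, 16.1, 5.51 and 15.1. For eif3ea plate 1 of 7 dpci lay just above the earlier plates and plates 2 and 3 well above (log2 fold changes 0.95 ± 0.46, adjusted p 0.270, and 0.87 ± 0.46, adjusted p 0.429). EIF3E had -1.20 ± 0.95 against 3 dpci (adjusted p 0.683). The core subunit genes EIF3B and EIF3CL, which bind the ribosome and carry other subunits, had fitted values of 0.20 ± 0.43 and 0.61 ± 0.44 against 1 dpci and 0.21 ± 0.44 and 0.51 ± 0.44 against 3 dpci. With library totals these 4 values turned to -0.54, -0.13, -0.41 and -0.11. On plate 1 of 7 dpci EIF3B, at 221 CPM, was below 1 dpci (291) and 3 dpci (289), whereas plates 2 and 3 (411 and 363) were above.

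**Figure D3:**
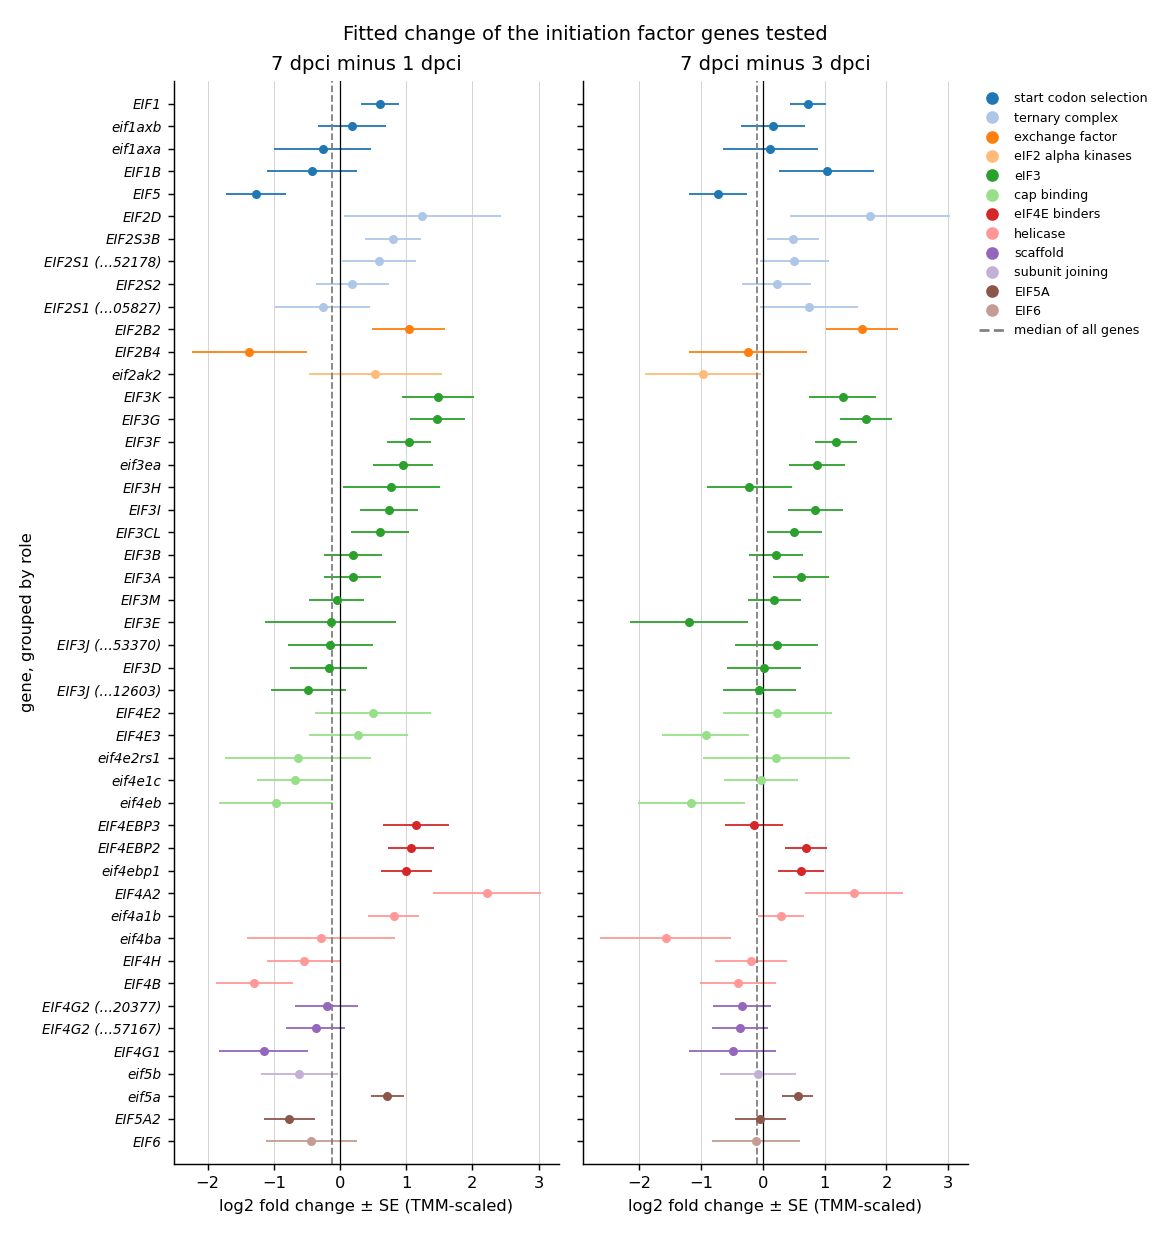
Log2 fold change (edgeR, TMM-scaled) of the 47 initiation factor genes tested, for 7 dpci minus 1 dpci on the left and 7 dpci minus 3 dpci on the right; bars are standard errors, colours are roles and the dashed line is the median of all 5624 genes tested. The genes of eIF3 and the eIF4E binders lie mostly to the right of the dashed line, and the 3 EIF4G rows lie to its left in both panels.

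The cap is bound by eIF4E proteins, and the 6 rows of this kind were all low. The class includes eif4e1c, a form found in fish that is known to be needed for normal heart regeneration in zebrafish. eif4e1c (ENSDARG00000012274) had 64.7 CPM at 1 dpci, 41.1 at 3 dpci and 36.2, 49.6 and 34.0 at 7 dpci, with 104, 39, 9, 27 and 18 UMIs. All 7 dpci plates were below 1 dpci, with a log2 fold change of -0.68 ± 0.57 (adjusted p 0.575), and they lay on both sides of 3 dpci (-0.03 ± 0.60, adjusted p 0.995). eif4eb, a canonical cap-binding gene, was counted 65 times at 1 dpci, 44 times at 3 dpci and 1, 18 and 11 times at 7 dpci, lower on 3 of 3 plates than both earlier times (-0.96 ± 0.86, adjusted p 0.608, and -1.16 ± 0.87, adjusted p 0.657). EIF4E3, a cap-binding gene of another class, had 20.5 CPM at 1 dpci, 47.4 at 3 dpci and 24.1, 22.0 and 28.4 at 7 dpci, so that 3 dpci stood above all other plates (-0.93 ± 0.71 for 7 against 3 dpci, adjusted p 0.665). EIF4E2, whose protein binds the cap without binding eIF4G, had 17.4, 21.1, 12.1, 33.0 and 26.5 CPM, and the related eif4e2rs1 had 32.4, 17.9, 0, 27.5 and 30.3. EIF4E2 at 1 and 3 dpci lay within the range of the 7 dpci plates, whereas eif4e2rs1 was below 1 dpci on 3 of 3 plates of 7 dpci, with no UMI on plate 1 (-0.63 ± 1.104, adjusted p 0.826). EIF4E itself (ENSDARG00000077012) was counted 12 times at 1 dpci, 9 times at 3 dpci and 0, 2 and 0 times at 7 dpci and was not tested.

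Transcripts of the eIF4E-binding proteins, summed over their rows, were counted more often on every plate than those of the cap-binding genes. EIF4EBP2 (ENSDARG00000031819) had 296 CPM at 1 dpci, 381 at 3 dpci and 672, 642 and 547 at 7 dpci. All 7 dpci plates were above both earlier plates, with log2 fold changes of 1.07 ± 0.35 (adjusted p 0.103) and 0.70 ± 0.34 (adjusted p 0.388). eif4ebp1 (ENSDARG00000043608) had 268, 350, 418, 585 and 601 CPM, again with every 7 dpci plate highest (1.00 ± 0.38, adjusted p 0.161, and 0.62 ± 0.37, adjusted p 0.533). With library totals the log2 fold changes were 0.35 and 0.10 for EIF4EBP2 and 0.27 and 0.003 for eif4ebp1, and the summed share of the binders was 0.105% of UMIs at both 3 and 7 dpci. EIF4EBP3 (ENSDARG00000041607) had 53.5 CPM at 1 dpci, 132 at 3 dpci and 88.5, 123 and 142 at 7 dpci, so that 1 dpci alone was low (1.15 ± 0.50 against 1 dpci with adjusted p 0.225, and -0.15 ± 0.47 against 3 dpci, adjusted p 0.956). When cells were thinned to 500 UMIs, the first of these values was -0.18. The second eif4ebp3 row (ENSDARG00000054916) had 1 to 8 UMIs per plate and was not tested.

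Helicase and scaffold bring the mRNA to the ribosome. eif4a1b (ENSDARG00000003032), the main eIF4A helicase row, had 289 CPM at 1 dpci, 413 at 3 dpci and 386, 562 and 571 at 7 dpci. It was higher on 3 of 3 plates than at 1 dpci (0.81 ± 0.38, adjusted p 0.264) and on 2 of 3 than at 3 dpci (0.30 ± 0.37, adjusted p 0.832, turning to -0.32 with library totals). EIF4A2 (ENSDARG00000016477), the second eIF4A helicase, had the highest fitted change of all members against 1 dpci, on few UMIs (17 at 1 dpci, 17 at 3 dpci and 8, 35 and 27 at 7 dpci). Its levels of 10.6 CPM at 1 dpci and 17.9 at 3 dpci were below the 32.2, 64.2 and 51.1 of 7 dpci, with log2 fold changes of 2.22 ± 0.82 (adjusted p 0.147) and 1.47 ± 0.79 (adjusted p 0.446). EIF4B, which stimulates the helicase, had 97.7 CPM at 1 dpci, 52.7 at 3 dpci and 20.1, 55.1 and 39.7 at 7 dpci. It was lower on 3 of 3 plates than at 1 dpci (-1.29 ± 0.58, adjusted p 0.235) and on 2 of 3 than at 3 dpci. Its copy eif4ba had 19 UMIs at 3 dpci and 1, 3 and 5 at 7 dpci (-1.58 ± 1.06 against 3 dpci, adjusted p 0.592, the lowest value of any member there).

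All 3 scaffold rows tested were lower at 7 than at 1 dpci on 3 of 3 plates, with log2 fold changes of -0.20 to -1.15. They were EIF4G1, the main scaffold, and the 2 EIF4G2 rows, which encode a related protein that does not bind eIF4E. EIF4G1 (ENSDARG00000006200), described here after its values were seen, had 135 CPM at 1 dpci, 85.3 at 3 dpci and 121, 42.2 and 30.3 at 7 dpci. Plate 1 of 7 dpci stood near 1 dpci and plates 2 and 3 well below (-1.15 ± 0.67, adjusted p 0.384). The value of plate 1 rests on 30 UMIs in 6 of 169 cells. Without the deepest wells, that plate had 19 UMIs of all EIF4G rows in place of 72, and 466 of eIF3 in place of 715. The plate of 1 dpci then had 184 UMIs of EIF4G rows in place of 561, and 2076 of eIF3 in place of 3725. With the stricter rule on wells of other cell types, the 2 EIF4G2 values turned to 0.19 and 0.10.

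eif5a (ENSDARG00000017235), whose protein helps ribosomes past difficult stretches, was the most abundant member on every plate. It had 1479 CPM at 1 dpci, 1648 at 3 dpci and 2478, 2360 and 2453 at 7 dpci. The 7 dpci plates lay close together and above both earlier plates, with log2 fold changes of 0.72 ± 0.25 (adjusted p 0.132) and 0.56 ± 0.25 (adjusted p 0.343). With library totals these became 0.001 and -0.04, so this difference depends on the scaling. EIF5A2 (ENSDARG00000056186), the other EIF5A row, had 376 CPM at 1 dpci, 228 at 3 dpci and 173, 222 and 265 at 7 dpci, lower on 3 of 3 plates than at 1 dpci (-0.77 ± 0.39, adjusted p 0.304). It was called lower with library totals (-1.49 ± 0.34, edgeR adjusted p 0.0398). In that setting 497 of 5624 genes were called lower and 49 higher, and the median of all genes was -0.85. Against 3 dpci it had -0.04 ± 0.41 (adjusted p 0.987). eif5b, which joins the large subunit, was lower than 1 dpci on 3 of 3 plates (-0.61 ± 0.58, adjusted p 0.634). EIF6, which keeps the large subunit apart until it is needed, had 42.3 CPM at 1 dpci, 33.7 at 3 dpci and 44.3, 25.7 and 26.5 at 7 dpci (-0.44 ± 0.69, adjusted p 0.801, and -0.11 ± 0.71, adjusted p 0.981).

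Ratios between members of the same plate do not depend on how plates are scaled to each other. A total of 6 such ratios were computed, all picked after the values had been seen, so they are a description. There were 4.07 UMIs of EIF1 per UMI of EIF5 at 1 dpci (exact 95% interval 3.60 to 4.62), 5.39 at 3 dpci (4.46 to 6.55) and 11.6, 16.4 and 17.7 at 7 dpci (intervals from 7.91 to 26.0). The intervals of the 7 dpci plates did not overlap those of the earlier plates here, but in 2 alternatives they did. With thinned cells plate 2 of 7 dpci had 5.16 to 23.1, beside 3.92 to 10.4 at 3 dpci. Without the deepest wells plate 1 of 7 dpci had 6.20 to 16.9, beside 4.81 to 7.78 at 3 dpci. How often other pairs of genes show such a gap was not computed. For eif5a per EIF5A2 the ratio was 3.93 at 1 dpci, 7.24 at 3 dpci and 14.3, 10.6 and 9.26 at 7 dpci. The UMIs of the EIF4EBP genes per UMI of the cap-binding genes numbered 3.40 at 1 dpci, 4.71 at 3 dpci and 15.6, 8.04 and 9.23 at 7 dpci. The eIF3 genes had 6.64 UMIs per UMI of EIF4G genes at 1 dpci, 7.31 at 3 dpci and 9.93, 23.6 and 17.6 at 7 dpci. In these 4 ratios all plates of 7 dpci stood above both earlier plates, but some intervals overlapped those of 3 dpci. For eif5a per EIF5A2 plate 3 of 7 dpci had 7.78 to 11.1, beside 6.28 to 8.39 at 3 dpci. For eIF3 per EIF4G plate 1 of 7 dpci had 7.79 to 12.8, beside 6.46 to 8.30 at 3 dpci. The other 2 were eif4a1b per EIF4A2 (27.4, 23.1, 12.0, 8.74 and 11.2 in plate order, from 8 to 35 UMIs of EIF4A2) and eif3ea per EIF3E (23.6, 11.9, 22.8, 137 and 44.0, from 3 to 26 UMIs of EIF3E). Without the wells rich in other cell types, EIF1 per EIF5 was 4.35, 5.26 and 15.4 ± 3.35 (mean and SD of 7 dpci) and EIF4EBP per cap-binding genes was 3.55, 4.61 and 10.96 ± 4.08. There eif5a per EIF5A2 was 4.29 at 1 dpci and 9.63 at 3 dpci, the latter above plate 3 of 7 dpci (9.23). With a stricter rule on such wells, eIF3 per EIF4G was 10.05 at 1 dpci, just above plate 1 of 7 dpci (10.03). Without the deepest wells this ratio was 11.3 at 1 dpci, 8.05 at 3 dpci and 20.6 to 36.6 at 7 dpci.

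**Figure D4:**
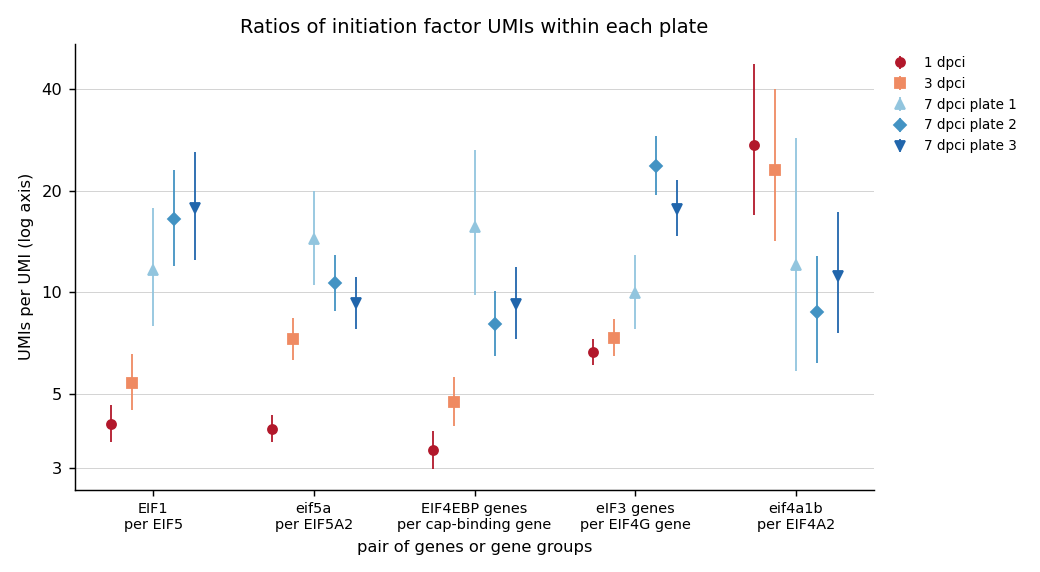
UMIs of a gene or gene group per UMI of another on the same plate (log axis), for 5 of the 6 ratios; points are plates and bars are exact 95% intervals for counting error. EIF1 per EIF5 goes from 4.07 at 1 dpci to between 11.6 and 17.7 at 7 dpci, and the first 4 ratios are higher on every plate of 7 dpci than at 1 and 3 dpci.

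The times of 3 and 1 dpci had a single plate each under the same run code, so no test was run and ratios of the shares of UMIs are given with exact 95% counting intervals. The summed members had a log2 ratio of -0.10 (interval -0.14 to -0.06). Among the 47 members, 9 had an interval above 0 and 17 below 0, where 14.7% and 25.4% of all genes did, and the median was -0.21 beside -0.17 over all genes. The largest increases with an interval above 0 were those of eif2ak2 (1.42, interval 0.37 to 2.53), eif4ba (1.21, 0.11 to 2.35), EIF4EBP3 (1.2, 0.79 to 1.61) and EIF4E3 (1.11, 0.43 to 1.80). Because eif4ba passed the 10 CPM filter only through the plate of 3 dpci, its place here rests in part on the filter. The largest decreases were those of EIF1B, a second eIF1 gene (-1.56, -2.47 to -0.74), EIF2B4 (-1.24, -2.07 to -0.47), the second EIF2S1 row ENSDARG00000005827 (-1.12, -1.89 to -0.40) and EIF4B (-0.99, -1.48 to -0.52). EIF5A2 (-0.82), EIF4G1 (-0.76), eif4e1c (-0.76) and EIF5 (-0.64) also had intervals below 0. How far plates of 1 time differ could not be measured at 1 or 3 dpci, and the intervals do not include it.

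Most cells held UMIs of several initiation factors. With each cell thinned to 500 UMIs, so that plates of different depth can be compared, cells held 5.51 member UMIs on average at 1 dpci, 5.09 at 3 dpci and 4.37, 4.57 and 4.79 at 7 dpci. No member UMI was found in 2 of 283 cells at 1 dpci, 5 of 268 at 3 dpci and 7 of 169, 8 of 230 and 3 of 225 at 7 dpci. The variance between cells was 1.28 to 1.39 times that of binomial sampling on 4 plates and 2.17 times on plate 1 of 7 dpci. Before thinning, a median of 14 members was detected per cell at 1 dpci, 12 at 3 dpci and 5, 9 and 8 at 7 dpci. For eif5a, 67.1% of thinned cells had a UMI at 1 dpci, 62.7% at 3 dpci and 59.2%, 52.6% and 56.4% at 7 dpci (96.8%, 92.9%, 78.1%, 85.7% and 88.0% before thinning). Thinned cells are not TMM-scaled, whereas the CPM of eif5a above, highest at 7 dpci, is. With library totals its log2 fold changes were 0.001 against 1 dpci and -0.04 against 3 dpci. The order thus differs between scales, and none is read from these shares. No cell type lacks initiation factors, so the free RNA that reaches every well was not measured for these genes.

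**Figure D5:**
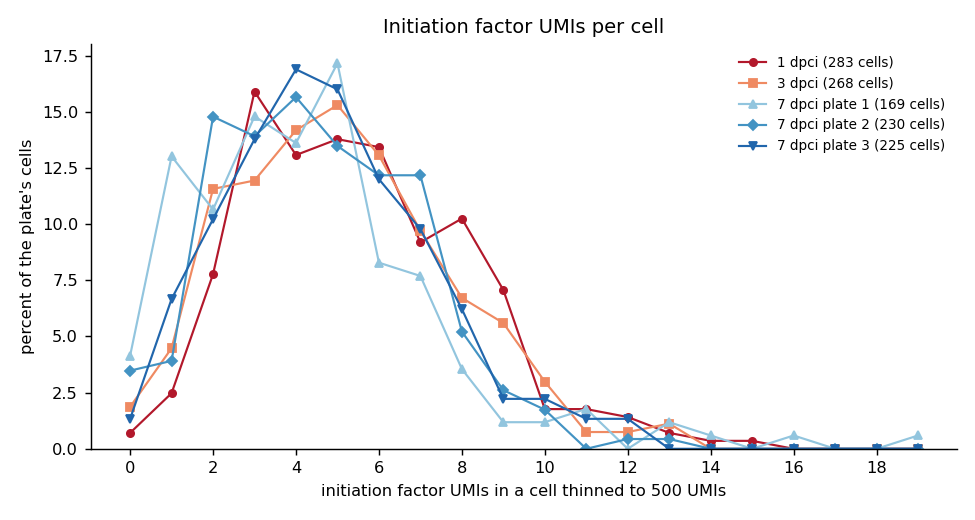
Percent of each plate's cells by the number of initiation factor UMIs left when the cell is thinned to 500 UMIs. The curve of 1 dpci lies furthest to the right, with a mean of 5.51, and that of plate 1 of 7 dpci furthest to the left, with a mean of 4.37 and 7 of 169 cells at 0.

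The neighbouring steps of translation were examined in lists of genes. Elongation, termination and recycling genes had a median log2 fold change of 0.47 between 7 and 1 dpci, and 3 of the 10 tested rose, beside 2.79% of all genes. With library totals this median was -0.25. These were EEF2, which moves the ribosome along the mRNA (285 CPM at 1 dpci, 531 at 3 dpci and 716, 1821 and 1435 at 7 dpci, log2 fold change 2.22 ± 0.53, adjusted p 0.0403), eef1a1l1, which delivers tRNA (1.18 ± 0.27, adjusted p 0.0340), and EEF1B2, its exchange factor (1.27 ± 0.31, adjusted p 0.0447). Against 3 dpci 0 of the 10 passed, beside 1.87% of all genes. Without plate 1 of 7 dpci 5 of 10 rose against 1 dpci and 4 of 10 against 3 dpci (10.3% and 6.45% of all genes). Of the 74 cytosolic ribosomal protein genes 13 rose and 0 fell between 7 and 1 dpci, with a median of 0.87, beside 2.79% and 4.69% of all genes, and 66 were higher on 3 of 3 plates (89.2%, beside 25.5% of all genes). Against 3 dpci 1 rose, beside 0.64% of all genes, and the median was 0.81. Without plate 1 of 7 dpci 64 of 74 rose against 1 dpci and 59 against 3 dpci (10.3% and 6.45% of all genes). With library totals the medians of the ribosomal protein genes were 0.15 and 0.21.

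Helpers of initiation outside the naming rule, such as poly(A)-binding proteins, had 0 of 12 called in both comparisons (7.49% and 1.87% of all genes), with medians of -0.19 and 0.17. The mTORC1 list also had 0 of 12 called, with medians of 0.20 and 0.09. Without plate 1 of 7 dpci 2 of 12 helpers rose in both comparisons and 1 fell against 3 dpci, and 2 and 1 of 13 mTORC1 genes rose. Of all genes 10.3% rose there against 1 dpci, and 6.45% rose and 7.14% fell against 3 dpci. The eIF2 alpha kinases start the integrated stress response. Of the 11 genes tested of a list for this response, 2 fell in both comparisons and 0 rose, beside 4.69% and 1.23% of all genes that fell. The medians of the list were -1.40 and -1.36. Without plate 1 of 7 dpci 5 fell against 1 dpci and 3 against 3 dpci (12.5% and 7.14% of all genes). ATF3, a stress transcription factor, fell from 527 CPM at 1 dpci and 196 at 3 dpci to 48.3, 31.2 and 20.8 at 7 dpci (-4.04 ± 0.46, adjusted p 0.00344, and -2.61 ± 0.47, adjusted p 0.0361). ppp1r15a, whose protein promotes removal of the phosphate from eIF2 alpha, fell from 111 and 193 CPM to 32.2, 18.4 and 15.1 (-2.42 ± 0.51, adjusted p 0.0276, and -3.21 ± 0.51, adjusted p 0.0234). atf4b, the factor at the centre of this response, had 151, 170, 201, 82.6 and 71.9 CPM in plate order and did not pass the test. CHAC1 was fitted higher against both times (0.23 ± 0.37 and 0.37 ± 0.38). ASNS (1.49 ± 0.94) and PSAT1 (0.57 ± 1.12) were fitted higher against 3 dpci only, and none of these passed the test. In each comparison all other tested genes of the list were fitted lower. Macrophage and fibroblast markers fell over the same times. Without the wells rich in other cell types the medians of this list were -1.32 against 1 dpci and -0.93 against 3 dpci. The part of other cell types in these changes was not tested.

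Plate 1 of 7 dpci was the shallowest and the only one of its run, and the number of members called moved most when it was left out. The spread then came only from plates 2 and 3 of 7 dpci, which share 1 run code, so differences between runs do not enter it. That pair differed least of the 3 pairs (chi-square per degree of freedom of 3.92, beside 6.46 and 7.67). Without plate 1, 15 of 49 members had an adjusted p under 0.05 between 7 and 1 dpci, where 22.8% of all genes did. Of these, 13 were higher, where 10.3% of all genes were, and 2 were lower, where 12.5% of all genes were. The 13 were EIF1, eif5a, EIF2S3B, eif4a1b, EIF4A2, the 3 binders eif4ebp1, EIF4EBP2 and EIF4EBP3, and 5 of the 14 eIF3 rows (EIF3F, EIF3G, EIF3I, EIF3K and eif3ea). The 2 lower were EIF5 (-1.41 ± 0.37, adjusted p 0.0104) and EIF4G1 (-1.78 ± 0.43, adjusted p 0.00572). Against 3 dpci 8 of 49 members were called, all higher, where 13.6% of all genes were called and 6.45% were higher and 7.14% lower: EIF1, eif5a, EIF2B2 and the same 5 eIF3 rows. Leaving out the wells rich in other cell types as well gave 15 members against 1 dpci (13 higher and 2 lower, beside 20.5% of all genes, 10.4% higher and 10.1% lower) and 8 against 3 dpci (7 higher and 1 lower, beside 12.1% of all genes, 6.89% higher and 5.25% lower). Without plate 2 of 7 dpci edgeR called 0 members and 0 of all genes. There 3 members were higher and 0 lower at an unadjusted p under 0.05 against 1 dpci (4.98% and 8.03% of all genes), and 2 higher and 0 lower against 3 dpci (3.06% and 4.98%), so the share of members that were higher was near the background. Without plate 3 it called 0 members, beside 7.13% of all genes against 1 dpci and 3% against 3 dpci. The members then had 3 higher and 0 lower at an unadjusted p under 0.05 against 1 dpci (5.89% and 11.3% of all genes), and 2 and 0 against 3 dpci (3.79% and 8.05%).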

How the data were processed

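Values are estimated counts as deposited. For each gene in each well the authors counted UMIs and corrected them for collisions (4096 barcodes), with no scaling to depth. Reads were of 75 bp, the genome was Zv9 per the methods, the submitters' processing notes name BWA 0.6.2, and the gene annotation is not given in the sources used here. Gene symbols came from a table that named 14285 of 17997 IDs (79.4%). ERCC spike-ins and mitochondrial genes (13 named, 2 unnamed IDs) were left out, and wells with at least 500 UMIs were kept. No doublet caller was run. In an alternative, 118 cells were removed that exceeded 3 times their plate median.

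UMIs were summed over the cells of a plate, rounded and tested with edgeR 4.0.16 in R 4.3.3 (mean of at least 10 CPM, then TMM, quasi-likelihood test, Benjamini-Hochberg adjustment, two-sided, all 5 plates in 1 fit). Only 7 dpci has replicate plates, so the spread measured there was taken to hold for 1 and 3 dpci too. The lowest effective total was 248582 UMIs (plate 1 of 7 dpci) and the highest 1606439 (1 dpci). DESeq2 1.42.0 was an alternative. The test was tested on simulated data, where it missed most 4-fold changes and part of the 16-fold changes, so a member that was not called may still differ. Intervals are exact (Clopper-Pearson) and cover counting error only.

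Named members were those called, the 3 highest and 3 lowest fitted changes in each comparison, the 10 most abundant, and all EIF4EBP, EIF2AK, cap-binding, EIF5A and EIF6 rows. EIF4G1, EIF1B, eif5b and the members called without plate 1 of 7 dpci were named after their values were seen. Members and gene lists were chosen with earlier results of these data known. A well counted as rich in other cell types when UMIs of 35 marker genes of other cells outnumbered those of 10 cardiomyocyte marker genes.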

Additional observations from a re-analysis of the deposited data

How the results depend on the processing

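Named members gave 56 log2 fold changes, 2 for each of 28 members, and 770 values under alternatives. Of these, 678 kept direction and side of the threshold, 45 became called and 47 changed sign. As no member was called in the reported fit, no call could be lost. Of the 45, 19 came without plate 1 of 7 dpci and 19 without that plate and non-cardiomyocyte wells. The cause of these moves was not tested. The number of members called against 1 dpci, 0 as reported, was 2 with library totals, 1 with thinned cells, 1 without the deepest wells, 15 without non-cardiomyocyte wells and plate 1 of 7 dpci together, and 0 to 15 when 1 plate of 7 dpci was left out. Of all genes, 9.71%, 6.14%, 6.45%, 20.5% and 0% to 22.8% were called, in the same order. Against 3 dpci the number of members called was 1 thinned, 2 without the deepest wells, 8 without non-cardiomyocyte wells and plate 1, and 0 to 8 with 1 plate left out. Of all genes, 3.41%, 6.18%, 12.1% and 0% to 13.6% were called there, in the same order. The genes called against 1 dpci, 421 as reported, numbered 690 with no CPM filter, 249 in wells with at least 1000 UMIs, 198 without non-cardiomyocyte wells, 33 with the stricter rule (a well was kept only where cardiomyocyte marker UMIs exceeded 4 times the others), 1091 without non-cardiomyocyte wells and plate 1, and 0 to 1323 with 1 plate left out. Against 3 dpci, 105 as reported, they numbered 308, 53, 24, 20, 645 and 0 to 790 in the same order, 167 with thinned cells and 297 without the deepest wells. The median of the members against 1 dpci was -0.0104 with DESeq2, -0.56 with library totals, -0.19 with no CPM filter, -0.35 thinned and -0.0159 without non-cardiomyocyte wells, and against 3 dpci -0.42 with library totals. The share of UMIs with mitochondrial genes kept was 0.865%, 0.834%, 0.763%, 0.864% and 0.846% in plate order. At 1 dpci it was 1.102% thinned, 1.07% without the deepest wells and 1.07% without non-cardiomyocyte wells, and at 3 dpci 1.02% thinned. The log2 ratio of 3 to 1 dpci was -0.0528 with mitochondrial genes, -0.16 without the deepest wells, -0.16 without non-cardiomyocyte wells and -0.14 with the stricter rule. Of 180 alternative values of the ratios within plates, 148 lay inside the interval of the reported value and 32 outside.

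All log2 fold changes that changed sign were uncalled. With library totals, values against 1 dpci became -0.12 (EIF1), -0.54 (EIF3B), -0.13 (EIF3CL), -0.45 (EIF4E3), -0.24 (EIF4E2) and -0.17 (eif2ak2), and against 3 dpci -0.0391 (eif5a), -0.32 (eif4a1b), -0.41 (EIF3B), -0.11 (EIF3CL), -0.42 (eif4e2rs1) and -0.40 (EIF4E2). With thinned cells, values against 1 dpci became -0.56 (EIF3B), -0.0507 (EIF3CL), -0.18 (EIF4EBP3), -0.55 (EIF4E2), 0.68 (eif4ba) and -0.38 (EIF2D), and against 3 dpci -0.18 (eif4a1b), -0.54 (EIF3B), -0.31 (EIF3CL), 0.00100 (EIF6), 0.36 (EIF4E3) and -0.00889 (EIF4E2). With the stricter rule they became -0.16 (EIF4E3) and -0.0775 (EIF4E2) against 1 dpci, and 0.17 (EIF5A2) and -0.17 (EIF4E2) against 3 dpci. Without non-cardiomyocyte wells and plate 1 they were 0.0513 (eif4e2rs1) against 1 dpci, and 0.39 (EIF5A2) and 0.0761 (EIF2B4) against 3 dpci. Without the deepest wells they were 0.0161 (eif4ba) against 1 dpci, and 0.12 (EIF5A2) and -0.37 (eif4e2rs1) against 3 dpci. Without non-cardiomyocyte wells they were 0.20 (EIF5A2) and -0.12 (EIF4E2) against 3 dpci, and with mitochondrial genes 0.0179 (eif4e1c). With 1 plate of 7 dpci left out, EIF3E ranged from -0.31 to 0.34 against 1 dpci. Against 3 dpci the ranges were -0.64 to 0.17 (EIF2B4), -0.0130 to 0.55 (EIF4E2), -0.27 to 0.0642 (EIF4EBP3), -0.16 to 0.15 (EIF5A2), -0.31 to 0.0628 (EIF6), -0.19 to 0.12 (eif4e1c) and -0.14 to 0.74 (eif4e2rs1).

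No paired analysis was possible, because the labels link neither the plate of 1 dpci nor that of 3 dpci to any plate of 7 dpci. An alternative with TMM before the CPM filter, the stricter rule, the joint removal of wells and plate 1, and the ratios within plates were chosen after seeing the data. Depth limits genes below 10 CPM most, where plate 1 of 7 dpci often held 0 to 5 UMIs.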
